A study of Mus musculus with 40 samples.

Results

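Integrins, CD antigens and cytokine receptors are the proteins of the cell surface by which cells hold on to matrix and to each other and by which they are told apart. Members were taken by gene name: genes whose symbol begins as those of the integrins, interleukins and their receptors, tumour necrosis factor (TNF) ligands and receptors, chemokine receptors, Ly6 proteins, Fc gamma receptors, tetraspanins or colony-stimulating factor receptors do, or is a CD number. Of 3284 genes named on the array, 35 matched; Itgb2 and Cd34 were left out by the rule, which leaves 33 members. These are 8 genes with integrin names, 15 CD antigens, 4 interleukins or interleukin receptors, 1 TNF ligand, 1 chemokine receptor, 1 Ly6 gene and 3 tetraspanins. No TNF receptor, Fc gamma receptor or colony-stimulating factor receptor gene was among the named spots. A member is represented by 1 spot. Tspan5 is the one member with more than 1 spot, and the brighter of its spots on average was used, so no difference between groups entered the choice.

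RNA of 40 mouse samples was hybridized to nylon filter arrays of 5760 spots, 1 radioactively labelled sample per filter. The primary cells were peritoneal macrophages (n = 3, washed from the peritoneal cavity and kept 24 h in culture so that non-adherent cells were lost), stroma-vascular cells of inguinal white fat that adhered to the dish (n = 3, also 24 h after plating), and adipocytes freed from the same depot with collagenase (n = 3). The macrophage lines were Raw 264 (n = 3) and J774 (n = 2). Cultured fat cells were 3T3-F442A adipocytes after 7 days with rosiglitazone (n = 3) and, as their baseline, 5 samples of 4 undifferentiated preadipocyte lines (3T3-L1 with 2 samples that were averaged, 3T3-F442A, Ob1774 and Hgfu). Muscle was represented by tibialis muscle (n = 2) and by C2C12 cells as myotubes after 7 days in horse serum (n = 2) and as proliferating myoblasts (n = 3). Whole liver (n = 2), ZIN40 embryonic stem cells (ES cells) with LIF (n = 3) and without LIF (n = 3), and the mesenchymal line C3H-10T1/2 (n = 3) complete the set. Each line is 1 line or clone. The labels name no strain, age or sex of the animals and no pooling, and they do not say that samples of a group are separate cultures or animals. The spread behind each p-value is therefore that between these samples and may be technical.

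Integrins are pairs of an alpha and a beta chain that tie the extracellular matrix or a neighbouring cell to the cytoskeleton, and Itgb1 encodes the beta chain shared by the widest set of pairs. CD antigens are surface proteins known by the antibodies that mark leukocyte lineages, although many, such as Cd47 and Cd82, are made by most cells. Tetraspanins gather integrins and other receptors into membrane patches, and interleukin, chemokine and TNF family proteins carry signals between cells, mostly of the immune system. In fat depots, such genes are used to tell precursor cells, macrophages, lymphocytes and endothelial cells of the stroma apart.

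Promoter windows from RefSeq (GRCm38.p6, 250 bases before to 50 after the annotated start, the window that the RefSeq table lists first for a gene) were matched by gene ID for 25 of the 33 members. The window of Itgb1, one of the members that passed the test in a comparison, is shown beside that of Itgax to set an integrin chain of nearly all cells against one of leukocytes. The capitals mark a GC box (GGGCGG on either strand).
Itgb1, chr8:128685404-128685703, plus strand: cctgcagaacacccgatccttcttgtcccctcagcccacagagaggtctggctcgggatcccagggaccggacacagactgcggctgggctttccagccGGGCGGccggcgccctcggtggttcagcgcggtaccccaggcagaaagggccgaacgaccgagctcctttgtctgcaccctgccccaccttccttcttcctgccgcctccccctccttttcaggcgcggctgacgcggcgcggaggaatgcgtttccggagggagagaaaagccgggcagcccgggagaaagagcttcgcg
Itgax, chr7:128129300-128129599, plus strand: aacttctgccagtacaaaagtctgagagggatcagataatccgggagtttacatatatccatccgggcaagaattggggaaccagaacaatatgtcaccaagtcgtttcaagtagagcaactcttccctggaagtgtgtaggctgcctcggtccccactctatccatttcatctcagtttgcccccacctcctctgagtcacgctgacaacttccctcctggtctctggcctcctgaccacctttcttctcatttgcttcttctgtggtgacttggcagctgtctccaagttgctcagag
The ratio of observed to expected CpG was 0.798 in the Itgb1 window, above 78.6% of 27025 windows of the same length, against 0.275 in the Itgax window, above 38.9% of them. Its median was 0.417 over the 25 members and 0.389 over all windows. A GC box was found in 9 of the 25 members and in 35.9% of all windows. The TATA motif TATAAA was found in 3 of the 25 and in 14.2% of all, the PU.1 motif GAGGAAGT in 1 (Il18rap) and in 3.28% of all, and the octamer ATGCAAAT in 0 and in 1.75% of all. All motifs were searched on both strands. Matches of different motifs did not overlap in the windows of the members, but GC boxes overlap each other in the Tspan5 window. These are letter matches and not evidence of binding.

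Levels are given as log2 of the quantile-normalized spot intensity plus an offset of 36370. On this scale the median spot stood at 16.44, the 10th percentile at 16.15, the 90th percentile at 17.13 and the highest value at 20.30. The filters carry no stated background measure, so a dim spot cannot be told from an absent transcript, and because levels of different genes come from different spots they are compared only across samples of the same gene. Most members were dim. The median percentile over the 37 arrays other than those of ES cells without LIF was under 50 for 24 of 33 members, and under 25 for 12 of them. It was over 75 for 7 members: Ly6g6c, Il17rd, Cd79b, Itga8, Itgb1, Cd47 and Cd163. A member could cross a wide span of percentiles between arrays, as Cd24a did between 2.07 and 92.9.

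**Figure D1:**
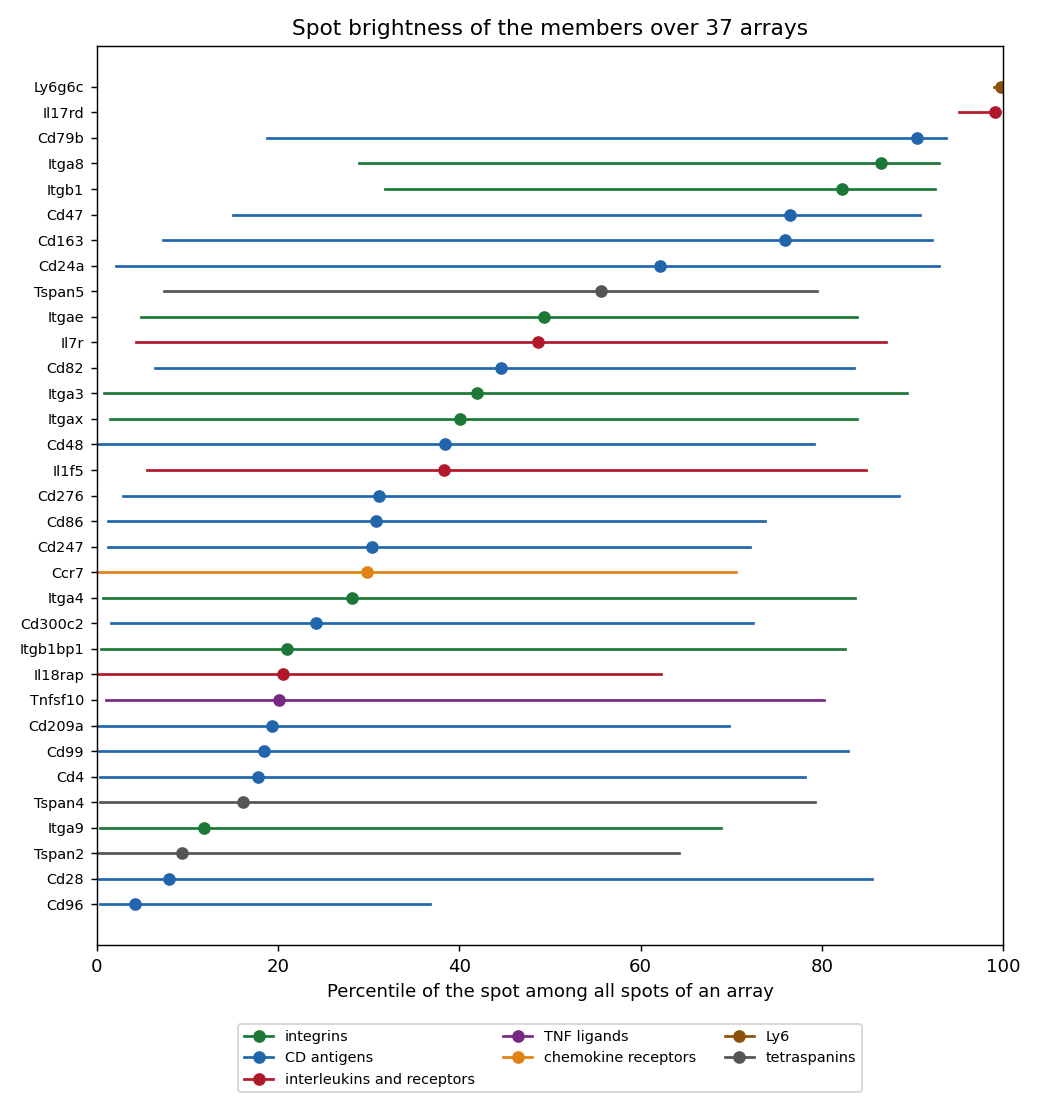
Percentile of each member's spot among all 5760 spots of an array, over 37 arrays (ES cells without LIF left out). Points are medians, lines run between the lowest and highest array, and colours mark the family. Ly6g6c and Il17rd sit at the top on every array, and 24 of 33 medians lie under 50.

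The 3 arrays of ES cells without LIF hold values of another kind, with a ratio of the 99th percentile to the median of 60.0 to 391, against 3.87 to 17.5 on the other arrays. They enter no comparison here, but they share the estimate of the spread. The liver samples correlated less with each other (Pearson r = 0.817 across spots) than samples of other groups did with their own group. Macrophage markers were highest in the macrophage groups: 5 of 11 were measured (Cybb, Fcer1g, Itgb2, Mpeg1 and Vav1), and their mean level was 17.39 to 17.68 in peritoneal macrophages, 16.90 to 17.38 in Raw 264 cells, 16.73 to 16.76 in J774 cells, 16.56 to 16.62 in stroma-vascular cells and 16.32 to 16.42 in preadipocyte lines. Of 12 lymphocyte markers, the 2 measured were Cd79b and Cd4, both members. None of 5 markers of pluripotent cells had a named spot, so the label of the ES cells could not be checked. All samples are bulk RNA, in which fewer cells of a type and less RNA per cell cannot be told apart.

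All 14 groups entered 1 limma fit, and a spot was called at a Benjamini-Hochberg adjusted p under 0.05 over all 5760 spots. Below, counts of members at an unadjusted p under 0.05 stand without the share of all spots at that threshold, which was not counted. The percentages of all spots are at the adjusted threshold, so no excess among members is read from these counts. Over the 12 comparisons, 3 of 33 members were called at least once, namely Cd24a, Cd79b and Itgb1, while 469 of all spots (8.14%) were called at least once. The range of the 13 group means, ES cells without LIF left out, had a median of 0.42 log2 over the members and 0.41 over all spots. The median residual SD was 0.163 log2 over the members and 0.164 over all spots. By these measures the members as a set varied about as much as the array did.

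**Figure D2:**
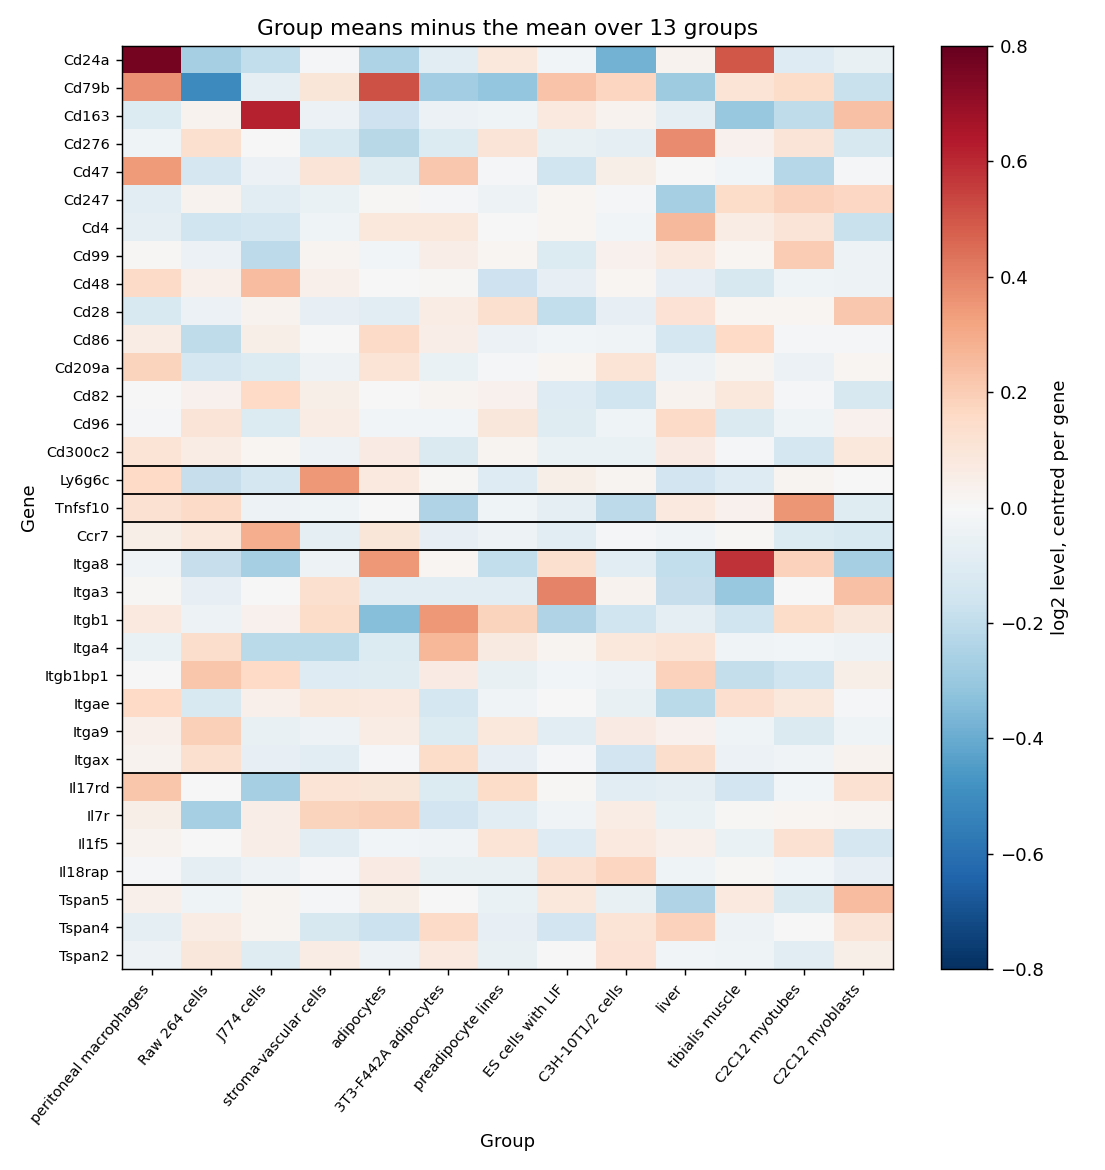
Mean log2 level of each member (rows, grouped by family) in 13 groups (columns), minus that gene's mean over the groups. The darkest red fields are Cd24a in peritoneal macrophages, Cd163 in J774 cells and Itga8 in tibialis muscle, whose means were 17.35, 17.34 and 17.55.

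Cd24a was higher in peritoneal macrophages than in every group they were compared with. It encodes a small glycoprotein anchored to the membrane by lipid, known on immature B cells, neutrophils and red cells, on regenerating muscle and on subsets of fat cell precursors. Its level was 17.28, 17.55 and 17.21 in the peritoneal macrophages. In the macrophage lines it was 16.47, 16.45 and 16.02 (Raw 264) and 16.39 and 16.38 (J774). The groups did not overlap, and the difference was 1.00 ± 0.15 log2 (SE, limma adjusted p = 1.63e-04), the only member called among 7 with an unadjusted p under 0.05. In this comparison 2.90% of all spots were called. Without the offset the ratio of geometric mean intensities was 2.79.

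The macrophages, at 17.21 to 17.55, did not overlap with stroma-vascular cells either, whose Cd24a levels were 16.89, 16.53 and 16.27, and exceeded them by 0.78 ± 0.17 log2 (limma adjusted p = 0.0205, ratio without the offset 2.18). Here 0.451% of all spots were called, and Cd24a was the 1 member called or with an unadjusted p under 0.05. In the preadipocyte lines the level was 16.57 and 16.57 in 3T3-L1, 16.59 in 3T3-F442A, 16.32 in Ob1774 and 17.18 in Hgfu. Hgfu stood close under the lowest macrophage sample, at 17.21. The difference between macrophages and these lines was 0.68 ± 0.16 log2 (limma adjusted p = 0.0327, ratio 1.97), with 0.712% of all spots called. These 3 comparisons share the macrophage samples. Cd24a is also the member with the widest range of group means, 1.14 log2. Tibialis muscle came next to the macrophages, at 16.98 and 17.18, against 16.39 and 16.56 in C2C12 myotubes, a difference of 0.60 ± 0.21 log2 that was not called (limma adjusted p = 0.220).

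The Cd24a call against the macrophage lines was kept under each alternative setting except scaling by the median alone (limma adjusted p = 0.0667), and 2 members were called there without macrophage sample 1 or Raw 264 sample 3 (Cd79b being the second) or without J774 sample 2 (Il17rd). Against stroma-vascular cells the call was lost with that scaling (limma adjusted p = 0.624) and in a fit of only the compared groups, without (0.0701) or with a replicate block (0.101). It was also lost there on leaving out macrophage sample 1 (0.0568) or 2 (0.207) or stroma-vascular sample 2 (0.115) or 3 (0.193). Against the preadipocyte lines the call was lost with that scaling (0.748) and in a fit of only the compared groups (0.144). There it was also lost without Ob1774 (0.120), 3T3-F442A (0.0863) or macrophage sample 1 (0.0626), 2 (0.263) or 3 (0.0564).

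Markers of cell types were read in the same comparisons as Cd24a. Both the macrophage genes and Cd24a were highest in peritoneal macrophages. Next came Raw 264 cells for the macrophage genes and tibialis muscle for Cd24a. Raw 264 cells had a mean macrophage gene level of 16.90 to 17.38 and a mean Cd24a level of 16.31. Tibialis muscle had 16.47 to 16.54 for the macrophage genes and 17.08 for Cd24a. Of the 5 macrophage genes, 4 were called higher in peritoneal macrophages than in stroma-vascular cells, 4 than in preadipocyte lines and 3 than in macrophage lines. Of 2 fibroblast and matrix genes, Col4a1 was called lower in peritoneal macrophages than in stroma-vascular cells, by -0.85 ± 0.16 log2 (limma adjusted p = 0.00353), and Timp2 was not called (0.15 ± 0.32 log2). Their mean level was 16.66 to 17.16 in peritoneal macrophages, against 17.15 to 17.46 in stroma-vascular cells. Among lymphocyte genes, Cd79b, the signalling chain of the B cell receptor, was 17.18, 17.78 and 17.60 in peritoneal macrophages, against 16.23 to 17.22 in the macrophage lines, 17.08 to 17.35 in stroma-vascular cells and 16.63 to 17.18 in the preadipocyte lines. The differences were 0.65 ± 0.19 log2 against the macrophage lines (limma adjusted p = 0.0522), 0.27 ± 0.21 against stroma-vascular cells (0.995) and 0.68 ± 0.20 against preadipocyte lines (0.115), and none was called. Over both lymphocyte genes the mean level was 16.78 to 16.98 in peritoneal macrophages, 16.08 to 16.60 in Raw 264 cells and 16.49 to 16.72 in J774 cells. It was 16.60 to 16.85 in stroma-vascular cells and 16.37 to 16.71 in preadipocyte lines. Groups with no lymphocytes by their labels reached similar levels: 16.81 to 16.86 in ES cells with LIF, 16.77 to 16.90 in C2C12 myotubes and 16.64 to 17.00 in C3H-10T1/2 cells. C2C12 myoblasts were lower, at 16.49 to 16.61. The red cell gene Hbb-b1 was 16.43 to 17.22 in peritoneal macrophages, against 16.11 to 16.49 in Raw 264 cells, 16.28 to 16.40 in J774 cells, 16.85 to 17.42 in stroma-vascular cells and 16.32 to 16.76 in preadipocyte lines. The part of other cells in the Cd24a result was not tested.

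**Figure D3:**
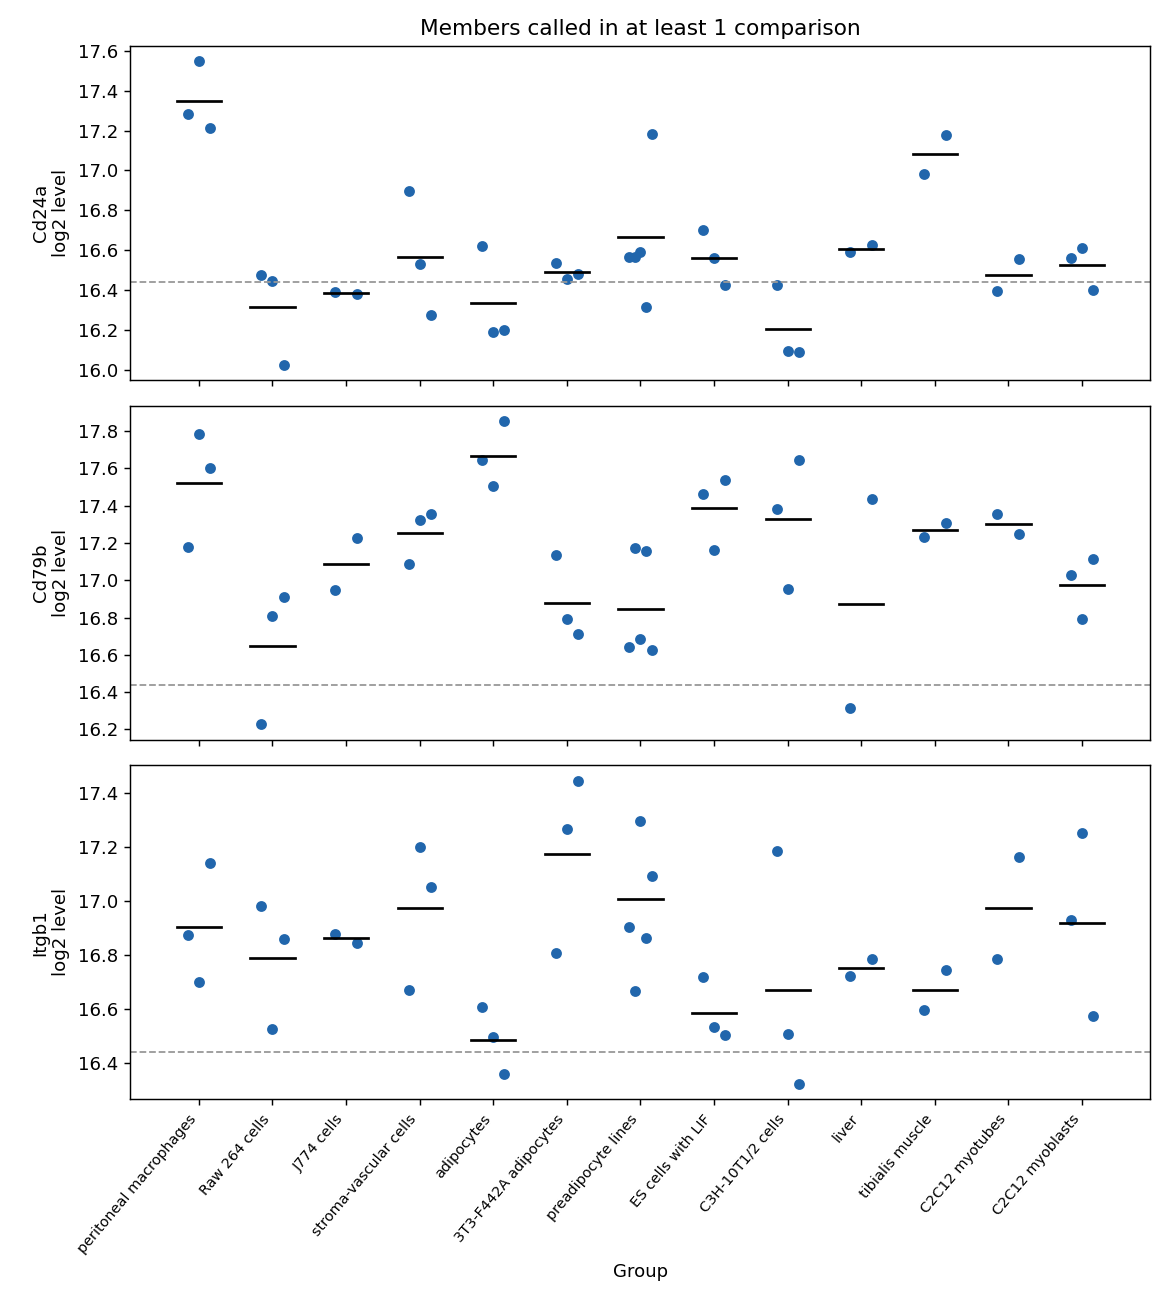
Log2 level of Cd24a, Cd79b and Itgb1 in each sample (points) of 13 groups, with group means (bars, over 4 lines for the preadipocyte lines) and the median of all spots (dashed line, 16.44). The 3 peritoneal macrophage samples are the highest of all for Cd24a, adipocytes are highest on average for Cd79b and lowest for Itgb1.

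Of the other members known from myeloid cells, 0 were called in any comparison, where 8.14% of all spots were called at least once. Itgax, known on dendritic cells and some macrophages, had group means between 16.26 and 16.56 in all 13 groups, and its highest mean was in 3T3-F442A adipocytes. The ranges of group means were 0.36 log2 for Cd86, a co-stimulatory ligand of antigen-presenting cells, 0.32 for Cd209a, a lectin of dendritic cells, and 0.25 for Cd300c2, an activating receptor of myeloid cells. For Cd209a and Cd300c2 the highest mean was in peritoneal macrophages, and for Cd86 it was in tibialis muscle, at 16.47. The CD antigen Cd48 had its highest means in J774 cells (16.62), peritoneal macrophages (16.52) and stroma-vascular cells (16.41). Its lowest mean was in the preadipocyte lines (16.20), and its range was 0.41 log2. Cd163 had a wider range, 0.92 log2. Cd163 encodes the macrophage receptor that takes up haemoglobin bound to haptoglobin. It was 16.73, 16.49 and 16.61 in peritoneal macrophages, against 16.57, 16.84 and 16.83 in Raw 264 cells and 17.38 and 17.30 in J774 cells. The J774 samples were the highest of the 37 arrays, while Raw 264 cells overlapped with peritoneal macrophages and with several groups that hold no macrophages by their labels, such as C2C12 myoblasts at 16.96, 16.70 and 17.19. The difference of peritoneal macrophages from both lines together was -0.43 ± 0.16 log2 and was not called (limma adjusted p = 0.172).

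Between the macrophage lines and the preadipocyte lines 0.521% of all spots were called and 0 of 33 members, with 5 members at an unadjusted limma p under 0.05. Cd163, named for its range and not for its p, differed by 0.36 ± 0.15 log2 (limma adjusted p = 0.314). Without the offset its ratio was 1.43, against 1.48 for Cd48. Il17rd, a membrane protein that restrains growth factor signalling as well as taking part in interleukin 17 signalling, had a difference of -0.28 ± 0.12 log2 (0.313).

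Cd79b and Itgb1 were the members called between adipocytes and 3T3-F442A adipocytes, out of 6 with an unadjusted limma p under 0.05 and with 2.47% of all spots called. Cd79b was 17.64, 17.50 and 17.86 in adipocytes, against 17.14, 16.79 and 16.71 in 3T3-F442A adipocytes. The samples did not overlap, and adipocytes were higher by 0.79 ± 0.21 log2 (limma adjusted p = 0.0359), or 2.05-fold without the offset. Its spot was bright in groups with no B cells by their labels: the mean was 17.39 in ES cells with LIF, 17.33 in C3H-10T1/2 cells, 17.30 in C2C12 myotubes and 16.98 in C2C12 myoblasts, and the lowest mean, 16.65, was in Raw 264 cells. Which transcript gives the signal in those lines was not tested.

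Itgb1 went the other way. It was 16.60, 16.50 and 16.36 in adipocytes, against 16.81, 17.27 and 17.45 in 3T3-F442A adipocytes, with no overlap. Adipocytes were lower by -0.69 ± 0.19 log2 (limma adjusted p = 0.0479), a ratio of 0.50 without the offset. Their mean was the lowest of the 13 groups, and that of 3T3-F442A adipocytes the highest, followed by the preadipocyte lines at 17.01 and stroma-vascular cells at 16.97. Stroma-vascular cells, which come from the same depot and were plated, had levels of 16.67, 17.20 and 17.05, against 16.36 to 16.60 in adipocytes. They stood 0.49 ± 0.19 log2 above the adipocytes without being called (limma adjusted p = 0.397, in the fit without pairs).

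Both calls were lost with scaling by the median alone (limma adjusted p = 0.151 for Cd79b and 0.0927 for Itgb1) and on leaving out any 1 sample other than the first of 3T3-F442A adipocytes (between 0.0606 and 0.173 for Cd79b, between 0.0976 and 0.215 for Itgb1), where a group of 2 is left. The Itgb1 call was also lost with 4 times the offset (0.0594), without the arrays of ES cells without LIF (0.0501) or with a replicate block (0.0578).

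The second lymphocyte gene, Cd4, did not move with Cd79b: it was 16.28, 16.33 and 16.42 in adipocytes, against 16.72, 16.18 and 16.14 in 3T3-F442A adipocytes, a difference of 0.00 ± 0.14 log2 (limma adjusted p = 0.993). Both measured fibroblast and matrix genes, Timp2 and Col4a1, were called lower in adipocytes with Itgb1, by -1.87 ± 0.32 and -0.79 ± 0.16 log2 (limma adjusted p = 7.36e-04 and 0.00572). The mean level of those genes was 16.72 to 17.00 in adipocytes, against 17.89 to 18.58 in 3T3-F442A adipocytes. None of the 5 macrophage genes was called. Hbb-b1 was 16.71 to 17.06 in adipocytes, against 16.25 to 16.37 in 3T3-F442A adipocytes (limma adjusted p = 0.259). The part of cell type in either difference was not tested, and culture and origin cannot be told apart between these groups.

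In the remaining comparisons of fat cells no member was called. Between stroma-vascular cells and adipocytes 0.625% of all spots and 0 members were called, and 2 members had an unadjusted limma p under 0.05. Same-numbered samples of those groups had correlated deviations and were taken as pairs by the rule given under processing. What same-numbered samples share was not tested. With the replicate block 231 spots were called, against 36 without it, but still 0 members. Between stroma-vascular cells and preadipocyte lines 0.191% of all spots and 0 members were called, 3 members having an unadjusted p under 0.05. Ly6g6c, a lipid-anchored surface protein of the Ly6 family, had the smallest p there, at a spot that was among the brightest on every array. It was 20.10, 19.86 and 19.98 in stroma-vascular cells, against 19.62 and 19.40 in 3T3-L1, 19.58 in 3T3-F442A, 19.66 in Ob1774 and 19.38 in Hgfu. The groups did not overlap, but the difference of 0.45 ± 0.14 log2 was not called (limma adjusted p = 0.315). Between 3T3-F442A adipocytes and preadipocyte lines 0.156% of all spots were called, and 0 members had even an unadjusted p under 0.05.

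**Figure D4:**
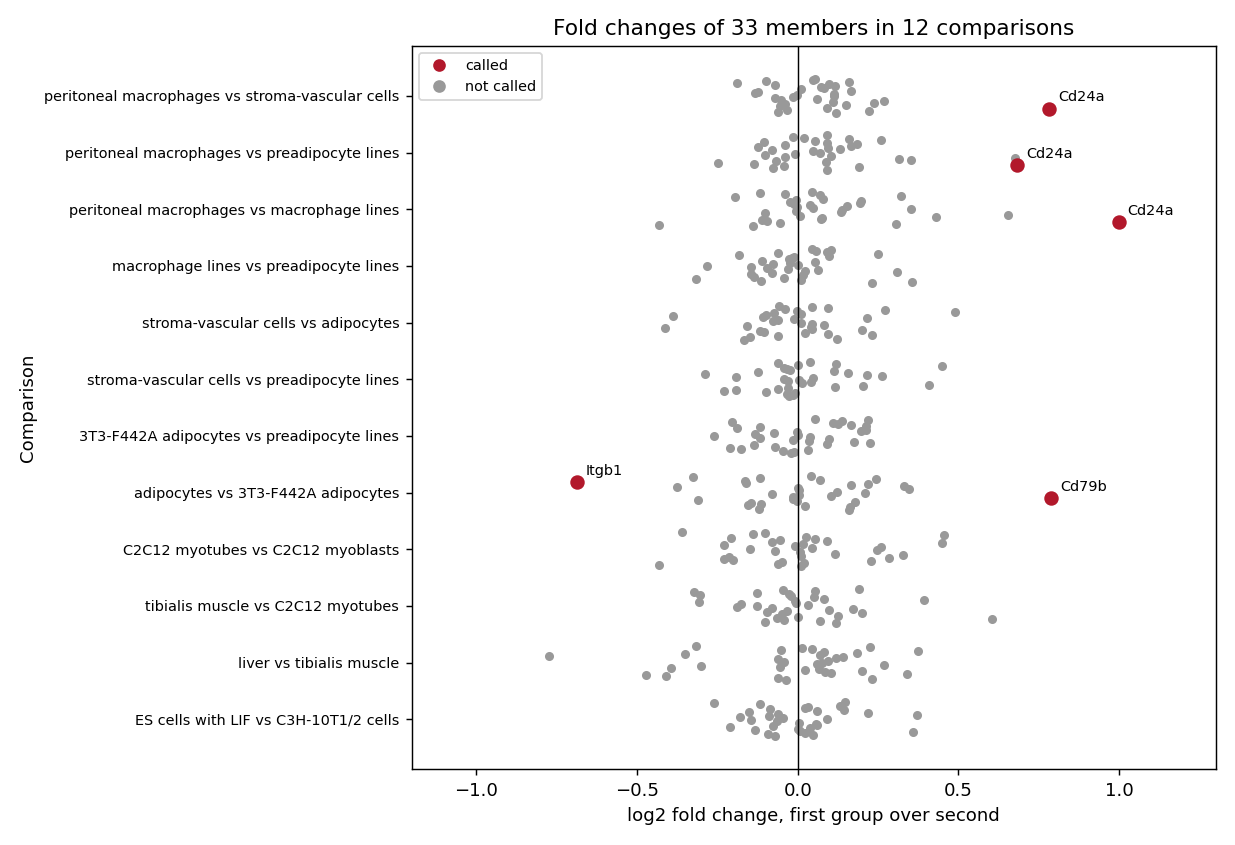
Log2 fold change (first group over second) of the 33 members in 12 comparisons. Red points with names passed a limma adjusted p under 0.05 over all spots, grey points did not. Cd24a is called in the 3 macrophage comparisons, and Cd79b and Itgb1 between adipocytes and 3T3-F442A adipocytes.

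Among muscle samples no member was called, and the members with the smallest p were Tnfsf10 and Tspan5 in C2C12 myotubes against C2C12 myoblasts and Cd24a, described above, in tibialis muscle against C2C12 myotubes. Tnfsf10 encodes TRAIL, a TNF ligand that can trigger cell death. It was 16.76 and 16.55 in C2C12 myotubes, against 16.16, 16.13 and 16.32 in C2C12 myoblasts. The samples did not overlap and the difference was 0.46 ± 0.13 log2 (limma adjusted p = 0.200), in a comparison with 0.226% of all spots called and 4 members at an unadjusted p under 0.05. The myotube mean, 16.66, was the highest of the 13 groups. Tibialis muscle did not share it, at 16.22 and 16.45, -0.32 ± 0.14 log2 from myotubes (0.445). Tspan5, a tetraspanin that guides the protease ADAM10, was 16.24 and 16.47 in C2C12 myotubes, against 16.71, 16.75 and 16.69 in C2C12 myoblasts, without overlap (-0.36 ± 0.13 log2, adjusted p = 0.294). Cd163 was 16.12 and 16.92 in C2C12 myotubes, against 16.96, 16.70 and 17.19 in C2C12 myoblasts, with overlap (-0.43 ± 0.20 log2, 0.465).

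Itga8 encodes the alpha chain that pairs with Itgb1 to bind nephronectin and is known in smooth muscle and mesenchymal cells. It was 17.54 and 17.56 in tibialis muscle, the highest mean of the 13 groups. C2C12 myotubes followed adipocytes, at 17.31 and 17.01, and tibialis muscle exceeded them by 0.39 ± 0.23 log2 (limma adjusted p = 0.679). In that comparison 0.920% of all spots and 0 members were called, with 2 members at an unadjusted p under 0.05. Without C2C12 myotube sample 2, where 1 myotube sample is left, 1 member (Cd99) was called in tibialis muscle against myotubes and 2 (Cd163 and Cd99) in myotubes against myoblasts. Myotubes stood 0.45 ± 0.21 log2 above C2C12 myoblasts, whose samples were 16.86, 16.86 and 16.41 (adjusted p = 0.459).

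Liver had Itga8 levels of 17.16 and 16.39, against 17.54 and 17.56 in tibialis muscle. Both liver samples were lower, but they lay far apart, and the difference of -0.77 ± 0.23 log2 was not called (limma adjusted p = 0.0658). Cd79b showed the same spread between the liver samples, 16.31 and 17.43, against 17.23 and 17.31 in tibialis muscle. Without liver sample 1, 2 members were called (Itga8 lower and Itgb1bp1 higher), and without liver sample 2 Cd79b was the 1 member called, as lower. In liver against tibialis muscle 1.88% of all spots and 0 members were called. At an unadjusted limma p under 0.05 there were 9 members, and the share of all spots at that threshold was not counted.

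Itga3, the alpha chain of a laminin-binding integrin of epithelia, had its highest mean in ES cells with LIF. Its level there was 16.80, 16.51 and 17.08, against 16.54, 16.24 and 16.50 in C3H-10T1/2 cells. Across the groups the samples overlapped, while within each of the 3 same-numbered pairs the ES cells were higher. The difference of 0.37 ± 0.16 log2 was not called (limma adjusted p = 0.9997, in the fit without pairs). Between these groups 0.208% of all spots and 0 members were called, and 2 members had an unadjusted p under 0.05. Same-numbered samples were taken as pairs here by the same rule. The replicate block raised the count over all spots to 26, against 12 without it, with 0 members in both.

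Among the interleukin and chemokine genes 0 members were called, while 8.14% of all spots were called at least once. These genes are too few for a lack of calls to be read from this. The range of group means was 0.49 log2 for Il17rd and 0.46 for Il7r, against a median of 0.41 over all spots. Il7r, the receptor chain for interleukin 7 on lymphocytes, was 16.66, 16.66 and 16.58 in adipocytes, against 16.22, 16.32 and 16.32 in 3T3-F442A adipocytes. The samples did not overlap, yet the difference of 0.35 ± 0.15 log2 was not called (limma adjusted p = 0.209). Ccr7, which guides dendritic and T cells to lymph nodes, was highest in J774 cells, at 16.62 and 16.58, and its 13 group means spanned 0.41 log2. Il1f5, the antagonist of the interleukin 36 receptor, spanned 0.26 log2. Il17rd and Ly6g6c were the 2 members among 269 spots in the top 7% of every array, at median percentiles of 99.1 and 99.7. Which transcripts give the signal at these 2 spots was not tested. Il17rd group means lay between 18.96 in J774 cells and 19.45 in peritoneal macrophages.

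No tetraspanin was called in any of the 12 comparisons, where 8.14% of all spots were called at least once. The tetraspanins are too few for a lack of calls to be read from this. The range of group means was 0.49 log2 for Tspan5, 0.35 for Tspan4, which takes part in the formation of migrasomes, and 0.21 for Tspan2, known from myelinating cells, the smallest range of any member. The dimmer Tspan5 spot, at a median percentile of 13.1 against 55.6 for the one used, was called in no comparison either. In C2C12 myotubes against C2C12 myoblasts it gave 0.07 log2, where the brighter spot gave -0.36.

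The integrins not yet described, Itga4, Itga9 and Itgae, and the integrin-binding protein Itgb1bp1, which the rule took in by its name, had ranges between 0.30 and 0.49 log2 and no call. The same holds for the CD antigens Cd247, Cd276, Cd28, Cd47, Cd48, Cd82, Cd96 and Cd99, with ranges between 0.27 and 0.60 log2, and for the interleukin 18 receptor chain Il18rap at 0.24.

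Few partners of these receptors inside the cell were measured. Of 16 JAK-STAT genes 3 had a named spot (Tyk2, Stat4 and Socs2), of 20 TNF receptor signalling genes 3 (Traf6, Ikbkb and Ikbkg), and of 10 adhesion partners of integrins 0. Of the 6 partners measured, 0 were called in any of the 12 comparisons, where 8.14% of all spots were called at least once. With so few genes no lack of calls is read from this. Socs2, a suppressor of cytokine signalling, had the largest such difference in macrophages against preadipocyte lines, 0.52 ± 0.18 log2 (limma adjusted p = 0.231).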

How the data were processed

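RNA was prepared with Tripure and DNase, and cDNA labelled with 33P was hybridized to Resgen nylon filters read with Imagene, per the labels' protocols. The authors deposited 1 linear intensity per spot; no background correction, scaling or software version is stated there. Here the 40 arrays were quantile normalized, 36370 (the 10th percentile of normalized intensities) was added, and log2 was taken of the deposited intensities treated in this way, so that fold changes of dim spots are understated. Of 5760 spots, 3420 carry 1 platform gene symbol, 98 several and 2242 none; 3346 symbols, and all 33 members, were matched by gene ID to GRCm38.p6 names. The number of arrays limits the precision.

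The 12 comparisons used two-sided tests of limma 3.58.1 (R 4.3.3) with 25 residual and 7.03 prior degrees of freedom, adjusted by Benjamini-Hochberg over all spots. The script was tested on simulated data. Figures used matplotlib 3.10.9 in Python 3.11.15. Members, marker lists and tests were chosen with earlier results of these data known. Named genes were the called members, the 3 members per family with the widest range of group means, and lymphocyte markers. Other members are given by range or count, with the highest group added for Cd86, Cd209a and Cd300c2. Group means and a ratio of Cd48 were added after its values were seen. An exception is Itgax, whose promoter and group means are shown and which was chosen after its values were seen. The neighbours of called spots and the second Tspan5 spot were read after values were seen. Alternatives were subtraction of each array's 5th percentile, median scaling, a fit of the compared groups alone, bright spots only, 4 times the offset, a replicate block, no ES arrays without LIF, and leaving out each sample.

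Sample numbers were taken as pairs where each of 3 same-numbered pairs of deviations from group means correlated above 0.1. This held for stroma-vascular cells and adipocytes (r = 0.259, 0.102 and 0.386) and for ES cells with LIF and C3H-10T1/2 cells (r = 0.394, 0.635 and 0.615). In each of these groups the median intensity of the array also rose with the sample number. A shared source and a shared handling of the arrays cannot be told apart from these correlations.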

Additional observations from a re-analysis of the deposited data

Results flagged for a closer look

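In the 4 preadipocyte lines, 1 line stood apart from the others in 4 of the 33 members. The share of all spots that did so was not counted, so no excess among members is read from this. Ob1774 and Hgfu have 1 sample each, so a difference of the line and one of its array cannot be told apart. The measure is the gap of the highest or lowest line to its nearest neighbour, divided by the range of the 4 lines, set against Dixon's 95% critical value, which chance exceeds in about 5% of groups. Itga8, the alpha chain that pairs with Itgb1, was lowest in Hgfu, at 16.30 log2, with the other lines between 16.92 and 16.94 (gap over range 0.965). In Ob1774, Ccr7 was lowest at 15.96, with the others between 16.34 and 16.41 (0.843), and Itgae, the alpha chain of an integrin of intraepithelial lymphocytes, was lowest at 16.09, with the others between 16.48 and 16.55 (0.840). Cd96 was highest in Ob1774, at 16.35, with the others between 16.10 and 16.14 (0.830).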

How the results depend on the processing

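Of 160 recounts of called members under alternatives, 126 stayed within 1.5 times the count reported and 34 did not. Most of those that stayed were counts of 0 that remained 0. In the comparisons with a called member, more recounts moved than stayed. The cause was not tested. Scaling by the median alone gave 0 called members in peritoneal macrophages against stroma-vascular cells, against preadipocyte lines and against macrophage lines, and in adipocytes against 3T3-F442A adipocytes. A fit of only the compared groups gave 0 in macrophages against stroma-vascular cells and against preadipocyte lines. With a replicate block the counts were 0 in macrophages against stroma-vascular cells and 2 against macrophage lines (Cd24a and Cd79b). They were 1 in adipocytes against 3T3-F442A adipocytes (Cd79b) and 1 in tibialis muscle against C2C12 myotubes (Cd24a). None of these comparisons met the rule for pairing by sample number. Tibialis muscle and C2C12 myotubes have only 2 numbered pairs, both with r = 0.101, so that rule, which asks for 3, could not decide there. The block changed no other count of members. In adipocytes against 3T3-F442A adipocytes 1 member (Cd79b) was called with 4 times the offset and 1 (Cd79b) without the ES arrays grown without LIF. Bright spots only gave 2 (Cd24a and Cd79b) in macrophages against macrophage lines.

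Leaving out each sample in turn gave 0 to 1 members in macrophages against stroma-vascular cells and against preadipocyte lines, 1 to 2 against macrophage lines, 0 to 2 in adipocytes against 3T3-F442A adipocytes, 0 to 2 in C2C12 myotubes against C2C12 myoblasts (Cd163 and Cd99 without myotube sample 2), 0 to 1 in tibialis muscle against C2C12 myotubes (Cd99 without that sample) and 0 to 2 in liver against tibialis muscle (Itga8 and Itgb1bp1 without liver sample 1, Cd79b without liver sample 2). No called member reversed under any of these alternatives. For liver and tibialis muscle same-numbered deviations correlated at r = -0.111; a crossed pairing, added after seeing the data, called 4 spots and 0 members, against 6 and 0 with the numbers as given. The planned membrane block could not be run, since the labels name no membrane. With groups of 2 to 4 arrays and most members dim, a difference that missed the threshold is not shown to be absent.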

Other observations

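In ES cells without LIF, whose arrays hold values of another kind, Cd24a was 17.22, 16.72 and 16.93 and Cd79b 17.58, 17.56 and 17.32. ES cells with LIF had 16.70, 16.56 and 16.42 for Cd24a and 17.46, 17.16 and 17.54 for Cd79b. These groups were not compared.

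Spots next to a called member in the table of spots were read for a local pattern. The 6 read for Cd24a, at 1, 2 and 24 places on either side, differed by -0.24 to 0.39 log2 in the 3 macrophage comparisons and were not called. For Cd79b, the spot 24 places on, which has no gene symbol, was called higher in adipocytes than in 3T3-F442A adipocytes by 0.55 log2 (limma adjusted p = 0.0249), and the other 5 were not called. For Itgb1 0 of 6 were called, with values between -0.44 and 0.18 log2. Whether position on the filter plays a part was not tested.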
